A study of Mus musculus with 2 samples.

Results

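The genes described here are 10 regulators of early progenitor state that meet around the let-7 microRNAs: the Lin28 pair (Lin28a, Lin28b), the exonuclease gene Dis3l2, the Igf2bp family (Igf2bp1, Igf2bp2, Igf2bp3), the Hmga pair (Hmga1, Hmga2) and the Musashi pair (Msi1, Msi2). They were chosen by symbol, for their known roles, and with earlier results of these data known. All 10 were found among the 43346 Ensembl genes of the deposited tables, with 51 annotated transcripts. Total RNA was profiled from hindbrains of healthy B6NCrl mouse embryos at embryonic day 11.5. There was 1 group with 2 biological replicates. Pool 1 combined tissue of 109 embryos of both sexes and pool 2 that of 88. The input was 10 ng of RNA above a size of 200 nt, to which ERCC spike-ins, synthetic RNAs of known sequence, were added. The pools carry no treatment or genotype contrast, each is a mixture of all the cell types in the dissected tissue, and no test between groups is possible.

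Let-7 microRNAs rise as progenitors mature and repress genes of the early state. Lin28a and Lin28b proteins bind let-7 precursors and block their maturation, in part by recruiting the terminal uridylyltransferases Tut4 and Tut7, which add a uridine tail that marks the precursor for degradation by Dis3l2. Hmga2, Igf2bp1 to Igf2bp3 and both Lin28 genes are themselves known let-7 targets, so the pathway forms a mutual block. Hmga proteins are small chromatin factors that bind AT-rich DNA, Igf2bp proteins hold and stabilise messenger RNAs, and Musashi proteins are RNA-binding regulators of translation that are long used as markers of neural progenitors.

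The let-7 sequences are shown first because both directions of this block can be read from them. The RefSeq table (build GRCm38.p6) held 9 mature 5′ products of the let-7 and miR-98 family. All 9 shared the seed GAGGUAG, which is bases 2 to 8 of the mature RNA and is in capitals in these examples:
mmu-let-7a-5p: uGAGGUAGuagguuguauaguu
mmu-let-7b-5p: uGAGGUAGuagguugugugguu
mmu-let-7g-5p: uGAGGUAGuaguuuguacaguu
mmu-let-7i-5p: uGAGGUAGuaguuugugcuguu
mmu-miR-98-5p: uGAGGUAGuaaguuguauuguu

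Lin28 proteins are known to contact a GGAG motif in the part of the precursor between its arms. Of 12 let-7 and mir-98 hairpins 9 held GGAG between the 5′ and 3′ products, on the strand of the RNA, and the 3 without it were Mirlet7b, Mirlet7c-2 and Mir98. The motif is short, and 44.5% of all 1005 mouse hairpins in the table held it somewhere along their length. In the pair shown, Mirlet7g (chr9:106178840-106178927, plus strand) holds GGAG, in capitals, and Mirlet7b (chr15:85707319-85707403, plus strand) does not:
Mirlet7g: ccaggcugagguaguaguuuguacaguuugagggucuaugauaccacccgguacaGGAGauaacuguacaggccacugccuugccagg
Mirlet7b: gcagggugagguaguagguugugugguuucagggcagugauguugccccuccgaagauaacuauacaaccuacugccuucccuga

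These libraries do not report on the microRNAs themselves. RNA under 200 nt was not taken, all 10 let-7 and mir-98 entries found in the tables had 0 reads in both pools, and 6 of the 10 had an effective length of 0, so that no read could be assigned to them.

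Matches to the let-7 seed were then counted in the 3′ untranslated region of each gene's most abundant protein-coding transcript (GENCODE vM21). The motif searched was CTACCTC, on the transcript strand alone, which pairs with bases 2 to 8. At least 1 match was present in 7 of the 10 genes, with 17 matches in all. Of 12615 expressed protein-coding genes with a 3′ untranslated region of 7 nt or more, 9.04% had a match. A gene is called expressed here where its mean TPM reached 1. TPM is a length-adjusted share of the library.

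Hmga2, Lin28b and Igf2bp1 had 4 matches each, Lin28a had 2, and Igf2bp2, Igf2bp3 and Hmga1 had 1 each. Dis3l2, Msi1 and Msi2 had none in these windows. Of all the 12615 untranslated regions 0.0634% had 4 or more matches. Length matters for such counts, so each gene was also set beside regions within 20% of its own length: as many matches as in Hmga2 were found in 0.0761% of 1314 such regions, as many as in Lin28b in 0.398% of 753, as many as in Igf2bp1 in 0.678% of 295 and as many as in Lin28a in 2.25% of 1424. For Igf2bp2, Igf2bp3 and Hmga1 the share of regions of similar length with a match was 12.5%, 12.7% and 8.27%. Each gene's own region is counted in its share. The share for Hmga2 is that of its own region alone, and those for Lin28b and Igf2bp1 rest on few regions. Most of these genes are textbook let-7 targets, so the matches describe the sequences and are not new evidence of regulation in this tissue.

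To show the element that these genes share, the match nearest the stop codon is given for 5 of the 7 genes, with the 16 bases before it and the 1 base after it, and the match in capitals. An A after the match, opposite base 1 of the microRNA, is known to make a site more effective. Of all 17 matches 9 were followed by an A, among them 1 of 4 in Hmga2, 1 of 4 in Lin28b and 3 of 4 in Igf2bp1, and the match in Hmga1 was not. The 5 shown all have it:
Lin28a, 909 nt after the stop codon: tgcacagcctgttgaaCTACCTCa
Lin28b, 36 nt after the stop codon: cacccgggcgggaagtCTACCTCa
Igf2bp1, 1715 nt after the stop codon: tgctgtgcgaagtaaaCTACCTCa
Igf2bp3, 548 nt after the stop codon: gtgcatttttactcaaCTACCTCa
Hmga2, 21 nt after the stop codon: cgccgacattcaatttCTACCTCa

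**Figure D1:**
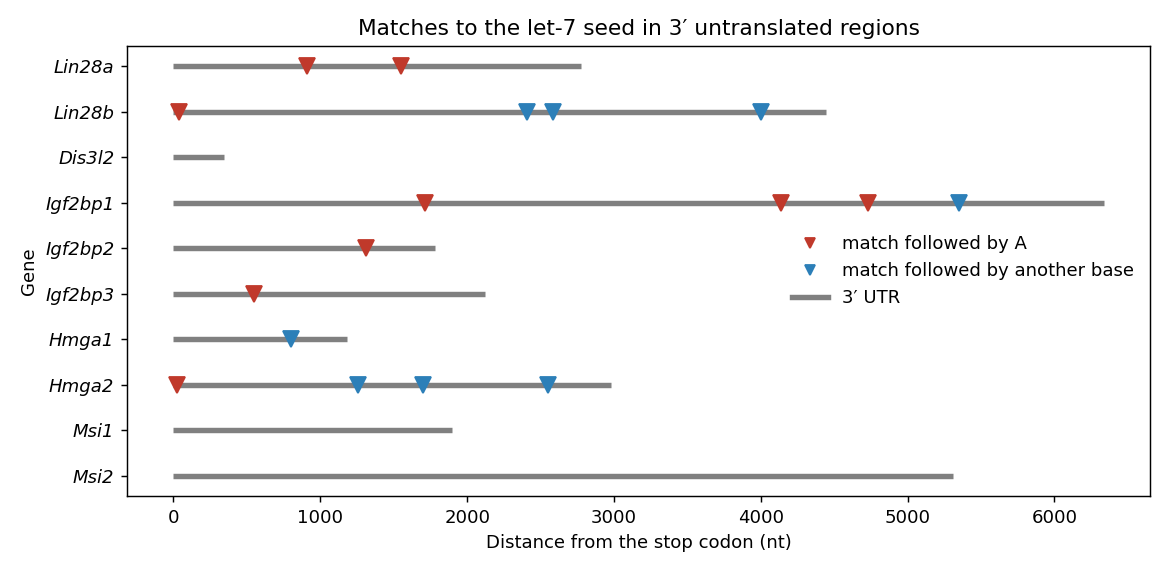
Matches to the let-7 seed along the 3′ untranslated region of each gene's most abundant protein-coding transcript. The x axis is the distance from the stop codon in nt, each gene has a line of its own, the grey line is the region, and triangles are matches, red where the next base is A and blue where it is another base. Hmga2, Lin28b and Igf2bp1 have 4 matches each, and Dis3l2, Msi1 and Msi2 have none.

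All 10 genes were detected, meaning that TPM reached 1 in pool 1 and in pool 2. The same was true of 59.4% of 21474 protein-coding genes and 33.0% of all Ensembl genes. Their levels spanned about 2 orders of magnitude, from Hmga1 at 233 ± 25.3 TPM (SD, n = 2) to Lin28a at 2.36 ± 0.530. In falling order of mean TPM they were Hmga1, Msi1, Igf2bp2, Igf2bp3, Igf2bp1, Hmga2, Dis3l2, Msi2, Lin28b and Lin28a. Of the 9 neighbouring pairs in this order 7 did not overlap between the pools' values, and the pairs Igf2bp2 with Igf2bp3 and Dis3l2 with Msi2 did. The median of the 10 was 44.2 TPM, beside 17.005 for the 13033 expressed protein-coding genes. The RNA comes from whole tissue, so fewer cells that make a transcript and less of it per cell cannot be told apart.

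**Figure D2:**
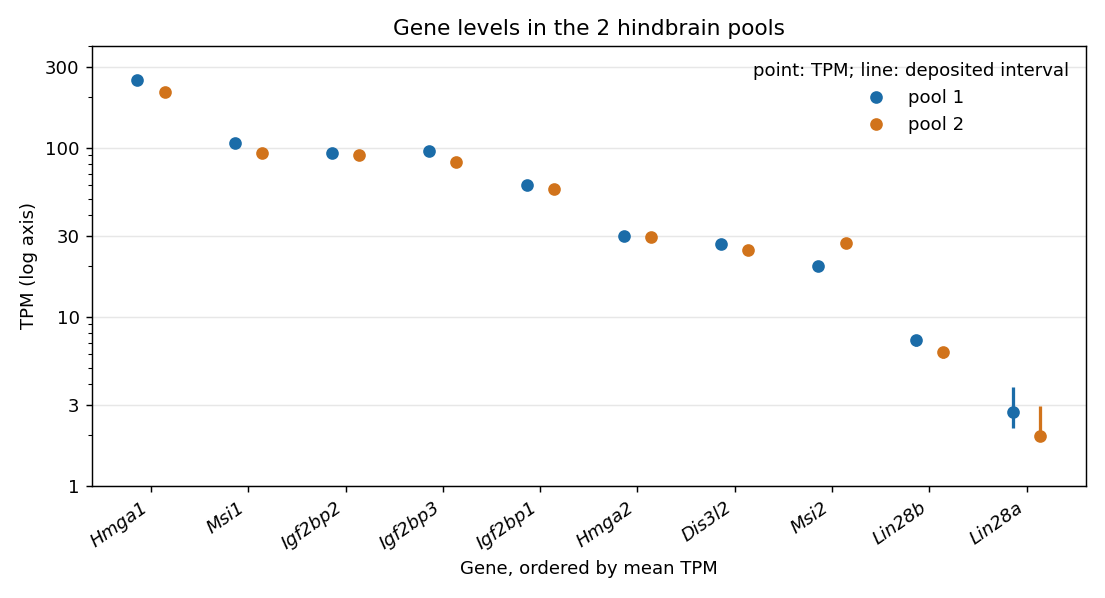
TPM of the 10 genes in pool 1 (blue) and pool 2 (orange), on a log axis, ordered by mean TPM. Points are single libraries and vertical lines the TPM intervals the authors deposited, most of them shorter than the points. Msi2 is the 1 gene whose TPM is lower in pool 1.

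The Lin28 genes were the lowest of the 10, and Lin28b exceeded Lin28a. Positions are those of GENCODE vM21 on GRCm38. Lin28b (chromosome 10, 45376620 to 45486395, minus strand) had 7.25 TPM in pool 1 and 6.19 in pool 2, from 1131 and 928 reads. Lin28a (chromosome 4, 134003330 to 134018841, minus strand) had 2.73 and 1.98 TPM, from 209 and 191 reads. Both pools of Lin28b lay above both pools of Lin28a, and Lin28b took 74.2 ± 2.21% of the summed Lin28 TPM. Among expressed protein-coding genes 27.4% lay below Lin28b and 10.3% below Lin28a.

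The difference of Lin28a between the pools lay in a short transcript with few reads. The full-length Lin28a-201, of 3505 nt and 209 codons, stood at 2.00 and 1.98 TPM in pools 1 and 2. The 478 nt Lin28a-204, an incomplete model, held 0.73 TPM in pool 1 from 8.18 reads, and 0 reads in pool 2. In CPM, reads scaled to the library total with no length adjustment, Lin28a was 4.97 in pool 1 and 5.19 in pool 2, the reverse of the order in TPM. Lin28b had a single annotated transcript, Lin28b-201, of 5402 nt and 271 codons.

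Dis3l2, the nuclease that degrades uridylated let-7 precursors, was several times above both Lin28 genes. It had 27.1 TPM in pool 1 and 24.7 in pool 2 (chromosome 1, 86703808 to 87050095, plus strand), from 2413 and 2131 reads. A pair of protein-coding transcripts carried most of it. Dis3l2-201, of 870 codons, took 62.5% in pool 1 and 51.2% in pool 2, and Dis3l2-202, of 884 codons, took 27.0% and 33.2%. Retained-intron models took 4.88% and 11.1%, and a model annotated as a target of nonsense-mediated decay 3.62% and 3.72%.

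The Igf2bp family was abundant, with a summed level of 239 ± 13.2 TPM, which was 36.3% of the total of the 10 genes. Igf2bp2 had 92.55 TPM in pool 1 and 91.0 in pool 2 (chromosome 16, 22059009 to 22163299, minus strand). Igf2bp3 had 96.0 and 81.9 (chromosome 6, 49085223 to 49214957, minus strand). Igf2bp1 had 60.3 and 57.2 (chromosome 11, 95957163 to 96005940, minus strand). Igf2bp1 lay below the other two in both pools, and the order of Igf2bp2 and Igf2bp3 changed from pool to pool, so that pair did not differ beyond the spread of the pools. Igf2bp1 took 24.5 ± 0.428% of the family's TPM, Igf2bp2 38.4 ± 1.67% and Igf2bp3 37.1 ± 2.10%.

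By reads, with no length adjustment, the order within the family was different. Igf2bp1 had the most reads of the 10 genes, 13630 in pool 1 and 12546 in pool 2, and took 40.6% of the family's reads. Igf2bp3 had 11980 and 9828 reads, and Igf2bp2 8562 and 8026. Its main transcript Igf2bp1-201 is 8378 nt long, of which 6337 nt lie in the 3′ untranslated region with its 4 let-7 seed matches. That transcript took 92.2% and 93.3% of the gene in pools 1 and 2. Igf2bp3 had a single annotated transcript, of 4344 nt. Reads of Igf2bp3 may include some of Malsu1, which overlaps it on the other strand and stood at 43.8 and 40.6 TPM, since no source used here states whether strand was used in counting.

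Igf2bp2 had the largest share of retained-intron transcripts among the 10 genes. The leading model, Igf2bp2-207 of 3267 nt, is annotated as a retained-intron transcript, and it held 52.1 TPM in pool 1 and 49.1 in pool 2. The full coding transcript Igf2bp2-201, of 592 codons, held 29.4 and 29.5 TPM, which was 31.7% and 32.4% of the gene. All 5 retained-intron models together took 67.0% and 66.5%. Of the 5255 expressed protein-coding genes with an annotated retained-intron transcript, the median share was 7.91%, and 98.0% of those genes had a smaller share than Igf2bp2. Such shares are estimates from short reads over models that overlap, and the split between Igf2bp2-207 and Igf2bp2-201 depends on how shared reads were divided. By transcripts annotated as protein-coding alone, Igf2bp2 stood at 30.3 and 29.8 TPM, below Igf2bp1 at 55.6 and 53.3.

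**Figure D3:**
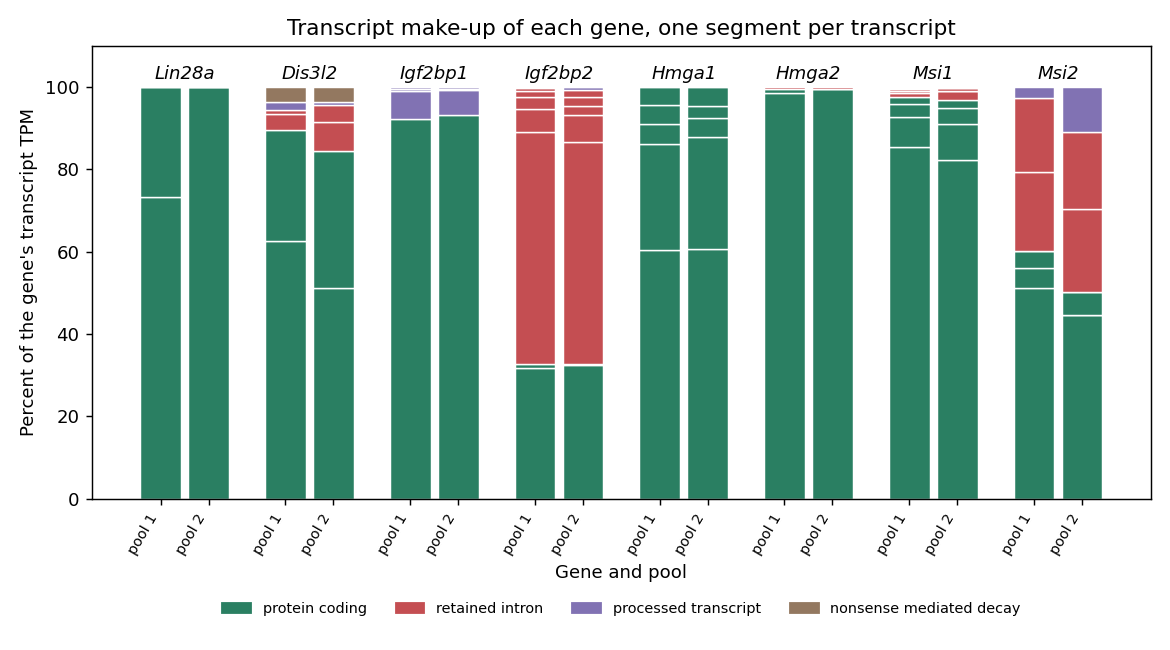
Share of each gene's transcript TPM, in percent, taken by each annotated transcript in pool 1 and pool 2. Each white-edged segment is 1 transcript, coloured by its GENCODE vM21 type; Lin28b and Igf2bp3, with 1 transcript each, are not drawn. Retained-intron models take 67.0% and 66.5% of Igf2bp2 and 37.0% and 38.9% of Msi2, and under 5% of Msi1 and Hmga2.

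Hmga1 was the highest of the 10 genes and exceeded Hmga2 in both pools. Hmga1 (chromosome 17, 27556497 to 27563674, plus strand) had 251 TPM in pool 1 and 215 in pool 2, a level above that of 96.0% of expressed protein-coding genes. Hmga2 (chromosome 10, 120361275 to 120476469, minus strand) had 29.9 and 29.55 TPM. Its SD was 0.762% of its mean, the smallest of the 10 in TPM as deposited. Relative to the median gene, which was higher in pool 1, Hmga2 was lower there, at a log2 difference of -0.093. Dis3l2 (0.016) and Igf2bp1 (-0.033) were among the genes nearer to the median gene. The TPM levels of the pair rest on 10763 and 8964 reads of Hmga1 and on 3171 and 3015 of Hmga2. Hmga2 took 11.4 ± 1.02% of the summed level of the pair. Hmga2 has 4 of the seed matches described above and Hmga1 has 1.

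The pair also differed in transcripts. Hmga1 is spliced into forms that encode the longer Hmga1a and the shorter Hmga1b protein, which lacks a short stretch between the AT-hooks. Transcripts with 106 or 107 codons in the vM21 annotation took 60.4% and 8.92% of Hmga1 in pool 1, and 60.6% and 7.50% in pool 2. Transcripts with 96 codons took 30.7% and 31.9%. The leading model of the first kind was Hmga1-203 (151 and 130 TPM) and of the second Hmga1-201 (64.9 and 58.7 TPM). Several Hmga1 models changed in length from the release the authors used, so the codon numbers may not hold for the models that were quantified. A near-identical gene copy on another chromosome, Hmga1b, was listed at 4.72 and 3.83 TPM, and reads may be split among the copies. Reads of the antisense gene AI413582, at 13.0 and 11.9 TPM, may also have entered Hmga1.

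Hmga2 was nearly all 1 form. Hmga2-201, of 3710 nt and 108 codons, took 98.6% in pool 1 and 99.6% in pool 2, with its 2977 nt 3′ untranslated region of 4 seed matches. This annotated model carries the whole region; transcripts that end early within it were not looked for.

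Msi1 exceeded Msi2 in both pools. Msi1 (chromosome 5, 115429599 to 115455698, plus strand) had 106 TPM in pool 1 and 93.5 in pool 2, from 8494 and 7059 reads. Msi2 (chromosome 11, 88339382 to 88718513, minus strand) had 20.0 and 27.3 TPM, from 2415 and 2921 reads. Msi1 took 84.1% of the pair's TPM in pool 1 and 77.4% in pool 2. The summed level of the pair was 126 and 121 TPM, so the pools differed more in the share of each gene than in the sum.

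The transcripts of Msi1 were mostly coding, while those of Msi2 were mixed. Msi1-208, of 3133 nt and 362 codons, took 85.4% and 82.2% of Msi1 in pools 1 and 2. The full-length Msi2-203, of 6436 nt and 328 codons, took 51.1% and 44.5% of Msi2, and the longer-coding Msi2-201, of 346 codons, 4.30% and 5.74%. The retained-intron models Msi2-205 and Msi2-207 took 37.0% and 38.9% together, a larger share than in 89.4% of the expressed genes that have such a model. The non-coding Msi2-204, of 684 nt, stood at 0.54 TPM in pool 1 and 2.97 in pool 2, from 9.38 and 49.1 reads.

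Between the pools, none of the 10 genes was over 1.5-fold apart. Differences are given as log2 of (TPM + 1) in pool 1 over pool 2, relative to the median gene, whose own value was 0.11. The same fold was passed by 5.98% of the 14942 expressed genes, 1.63% of them towards pool 1 and 4.35% towards pool 2, so a count of 0 in 10 lies near that share. Of the 10 values 6 were above 0 and 4 below, with a median of 0.044. With expected counts scaled by TMM, by DESeq2 size factors or to the library total, 4 were above and 6 below, since Lin28a (-0.052 with TMM) and Dis3l2 (-0.0076) changed sign. The largest above 0 was that of Lin28a (0.22), whose pool 1 level includes the 0.73 TPM of the short transcript, followed by Igf2bp3 (0.12) and Hmga1 (0.11). Igf2bp1 (-0.033), Igf2bp2 (-0.085) and Hmga2 (-0.093) were just below 0.

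Msi2 was the gene furthest apart, at -0.54, which is 1.45-fold lower in pool 1. Of the 7003 genes with 1000 to 10000 reads, 1.53% had a value as low or lower, and the SD of those genes was 0.21. From expected counts the difference of Msi2 was smaller. It was -0.455 with TMM, -0.454 with DESeq2 size factors and -0.455 when scaled to the library total. The direction held for coding transcripts (12.1 TPM in pool 1 and 13.7 in pool 2) and for retained-intron ones (7.41 and 10.6), and of these 3 classes the non-coding Msi2-204 differed by the largest ratio. Msi2 is a gene of 379 kb, and the values of long genes were lower in pool 1: the median was -0.19 over 445 protein-coding genes of at least 300 kb and 0.034 over those of 10 to 30 kb. At or below the -0.54 of Msi2 lay 8.99% of those 445 genes, and 2.00% of the 11054 genes under 100 kb. Retained-intron transcripts took 4.95% of the TPM of protein-coding genes in pool 1 and 5.68% in pool 2. The part of these library-wide values in the difference of Msi2 was not tested. Dis3l2, which spans 346 kb, stood at 0.016.

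The TPM intervals that the authors deposited did not overlap between the pools for 6 of the 10 genes (Lin28b, Dis3l2, Igf2bp3, Hmga1, Msi1 and Msi2). This was so for 40.4% of expressed genes and for 53.3% of those whose mean TPM reached 10, and the intervals were made for each library alone, with no term for the spread of libraries. The estimate of Igf2bp3 lay just above its own interval in both pools (95.96 TPM against an upper bound of 95.8 in pool 1, and 81.93 against 81.86 in pool 2), so its call rests on bounds that do not hold the estimate. That was the case in both pools for 2.86% of expressed genes and for no other of the 10. Of all TPM, spike-ins held 16.2% in pool 1 and 22.2% in pool 2, which lowers the TPM of every gene more in pool 2.

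**Figure D4:**
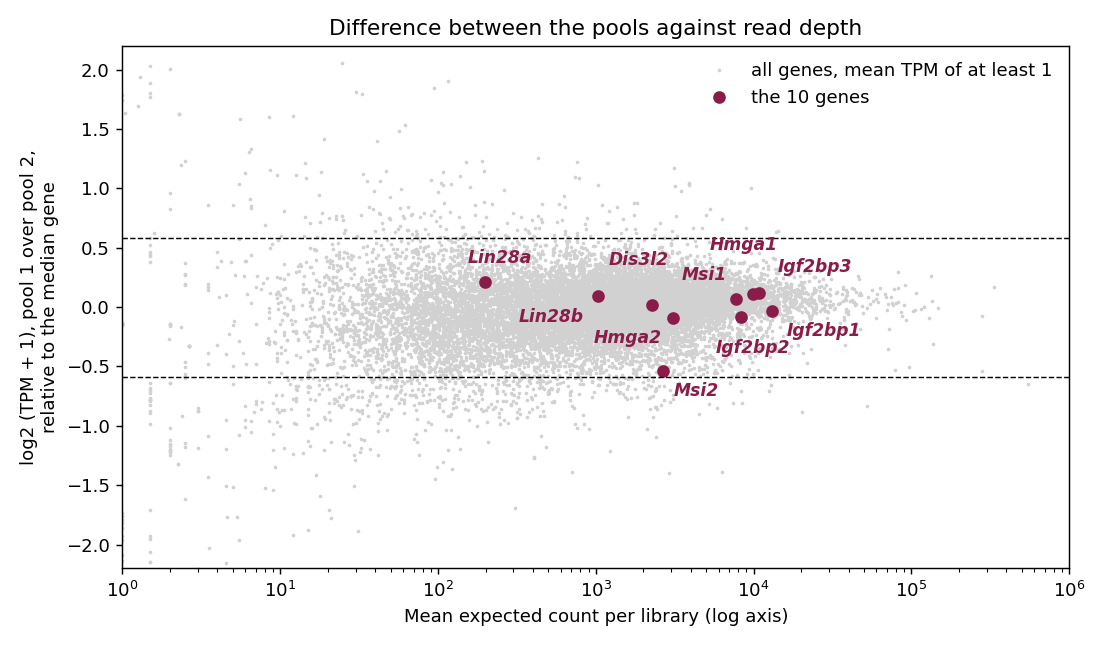
Difference between the pools (log2 of TPM + 1, pool 1 over pool 2, relative to the median gene) against the mean expected count per library, on a log axis. Grey points are all expressed genes, as far as they fall within the axes, red points the 10 genes, and dashed lines 1.5-fold. The 10 red points lie between the dashed lines, with Msi2 nearest to one at -0.54.

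Other genes of the let-7 axis were taken from lists of known members, also chosen with earlier results of these data known. Nearly all of these genes were present. All 19 genes of let-7 processing and decay were detected, beside 59.4% of all protein-coding genes. Their median was 29.4 TPM in pool 1 and 28.1 in pool 2. Hnrnpa1, a splicing factor that also binds let-7 precursors, was highest (960 and 877), followed by Syncrip (104 and 91.55) and Prkra (81.9 and 88.2), a partner of Dicer, and Ago4 was lowest (2.04 and 2.84). The uridylyltransferases that act with Lin28 were both present. Tut4 had 49.98 TPM in pool 1 and 69.1 in pool 2, and Tut7 had 21.4 and 18.3, which is above Lin28a and Lin28b in both pools. None of the 19 passed 1.5-fold, a count near the 5.98% of all expressed genes. Tut4 came closest, at a log2 difference of -0.57 relative to the median gene, towards pool 2.

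Known let-7 targets were as widely present, with 25 of 26 detected, beside 59.4% of all protein-coding genes. The G1 cyclin genes Ccnd2 (258 TPM in pool 1 and 217 in pool 2) and Ccnd1 (132 and 127) were highest. Nr2e1, a nuclear receptor of forebrain neural stem cells, was lowest (0.090 and 0.48). Igf1r, the receptor of insulin-like growth factors, was 15.2 in pool 1 and 23.1 in pool 2, and with Arid3a (3.47 and 5.50) it was past 1.5-fold towards pool 2. These were 2 of the 25 expressed list members, beside the 4.35% of all genes. Trim71, the let-7 target that is itself a regulator of early embryonic cells, was named after its values were seen, and stood at 1.45 and 1.84 TPM, near Lin28a.

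Host transcripts of let-7 genes were detected where they could be matched. Mir99ahg, the non-coding host of Mirlet7c-1, had 59.0 TPM in pool 1 and 68.8 in pool 2. The coding hosts Huwe1, which carries Mirlet7f-2 and Mir98, and Wdr82, which hosts Mirlet7g, had 56.55 and 79.7, and 24.6 and 22.55. Huwe1 was past 1.5-fold towards pool 2, at -0.60. It was 1 of 3 expressed hosts, beside the 4.35% of all expressed genes. A host's level does not give that of the mature microRNA.

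Transcripts known to be bound by these proteins were present in both pools. Of all protein-coding genes 59.4% were detected, and detection in lists this short, chosen for known roles, says little beside that share. All 7 of the Igf2bp-bound list were detected, led by Actb (5399 TPM in pool 1 and 5268 in pool 2), the growth cone gene Gap43 (292 and 258) and Igf2, the growth factor that gives the family its name (140 and 179), with the adhesion receptor Cd44 lowest (2.80 and 2.82). All 5 of the Musashi-bound list were detected, from Dcx, a microtubule protein of migrating neurons (126 and 120), Robo3, a receptor of commissural axons (91.3 and 83.7) and the cell cycle inhibitor gene Cdkn1a (29.2 and 25.1) to the Notch ligand gene Jag1 (16.1 and 15.3). No member of either list passed 1.5-fold, which in lists this short is near the 5.98% of all expressed genes.

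In the Hmga-linked list 8 of 10 matched genes were detected, beside 59.4% of all protein-coding genes. The other high-mobility-group genes Hmgn2 (2525 TPM in pool 1 and 2289 in pool 2), Hmgb1 (1145 and 990) and Hmgn1 (565 and 489) lay above Hmga1. Cdkn2a, the cell cycle inhibitor locus that Hmga2 is known to keep low in neural stem cells, had 0 reads in both pools. By the usual 95% bound for a count of 0, a mean of up to about 3 counts in each remains possible. Cdkn2b, the neighbour of Cdkn2a, stood at 0.81 and 0.93 TPM.

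**Figure D5:**
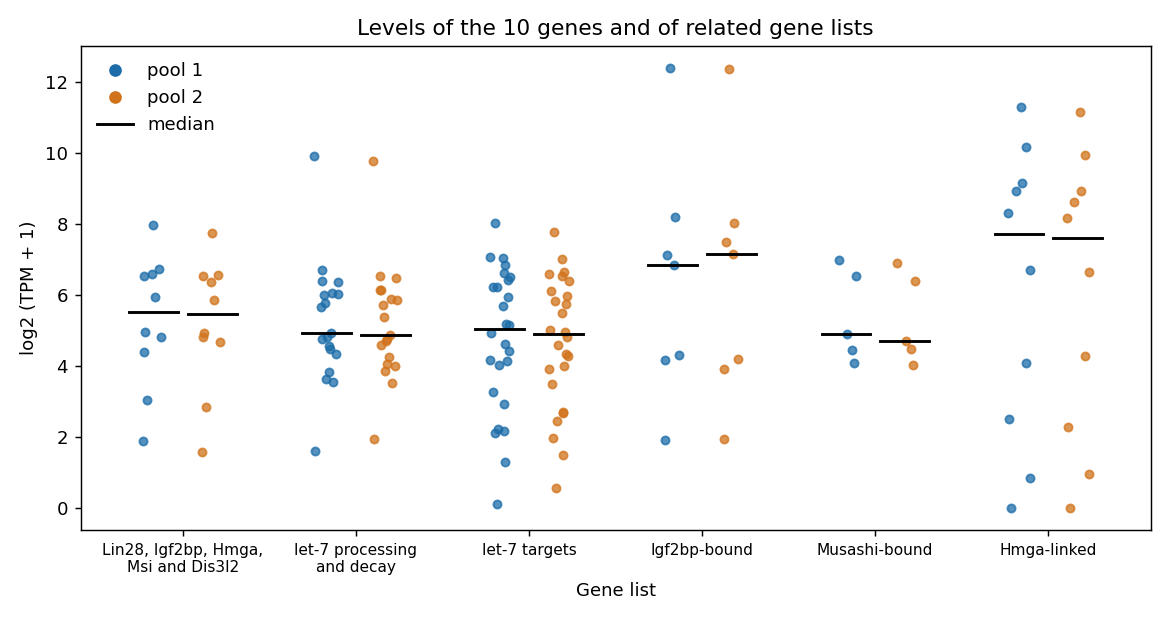
Level as log2 (TPM + 1) of each gene of the 10 and of 5 lists of known partners and targets, in pool 1 (blue, left) and pool 2 (orange, right). Points are genes, spread sideways at random for legibility, and black lines mark the list median. The medians of the 10 genes, at 45.1 and 43.4 TPM, lie above those of let-7 processing genes at 29.4 and 28.1 and below those of the Igf2bp-bound list at 113 and 142 and the Hmga-linked list at 211 and 194.

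The tissue label was checked against markers. The lists are short, and 59.4% of all protein-coding genes were detected, so the counts of detected markers are a weak check. Of 6 hindbrain genes 5 were detected (Hoxa2, at 49.3 TPM in pool 1 and 48.1 in pool 2, was highest, and Egr2 was under 1), against 1 of 5 forebrain genes, Lhx2. Progenitor markers (7 of 7; sums of 2371 and 2145 TPM) and neuron markers (7 of 7; 1834 and 1628) were both present. So were mesenchyme (7 of 7; 588 and 556), erythroid (6 of 6; 10064 and 9529), endothelial (6 of 6; 94.8 and 83.6) and macrophage markers (5 of 5; 65.1 and 62.3). Skeletal muscle markers summed to 54.4 and 23.9 and those of surface and otic epithelium to 157 and 98.3. Actc1, Myog and Acta1, all 3 expressed genes of the muscle list, were past 1.5-fold towards pool 1, as were 1.63% of all expressed genes. In the epithelial list Oc90 (105 and 47.6) was past that fold, and the other 4 genes summed to 52.3 and 50.7. In the progenitor list Hes5 (202 and 109) was past it, and Sox2 (25.2 and 15.4) fell just short of it, also towards pool 1. Of the 7 genes 3 were above the median gene in pool 1, and the list's median difference was -0.052. Hmga2, Lin28b and the Igf2bp genes are known to be active in embryonic mesenchyme and blood as well as in neural cells. The share of each cell type in the levels of the 10 genes was not tested.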

How the data were processed

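The members and gene lists were chosen with earlier results of these data known. For each library the authors deposited gene and transcript tables with expected counts (estimated counts that need not be whole), TPM, FPKM, an isoform percent and interval bounds around TPM, treated as a score because no source states their level. TPM is relative to all entries, spike-ins included, as the deposited values show. The build was mm10 with GENCODE M4, per the labels and the readme beside the tables; the aligner, quantification tool and strand use were not given in the sources used here. Depth was 45340440 and 41261544 expected counts in pools 1 and 2. Lin28a, with about 200 reads a library, has the largest relative counting error of the 10 genes.

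Symbols, transcript types and coordinates (GRCm38, 1-based) came from GENCODE vM21, matched on identifiers without versions; microRNA sequences came from RefSeq. Both samples form 1 group, and whether the pools came from separate litters is not stated, so SDs (n = 2) measure the spread between these libraries. Named genes were all 10 members and the 3 highest and 1 lowest gene of each list. Also named were list genes past 1.5-fold whose mean TPM reached 5, and transcripts with at least 10% of a gene. Others (Tut4, Tut7, Arid3a, Trim71, Cdkn2b, Sox2 and minor transcripts) were added after their values were seen. Of the let-7 targets, 1 gene that the rule selects is not reported here. Of the marker lists, counts and sums are given rather than every gene the rule selects. The call of genes apart between the pools was tried on simulated counts, and the search for the seed motif on a made sequence. The other steps were not tested on simulated data. Expected counts, rounded to whole numbers, were scaled with edgeR 4.0.16 (TMM) and DESeq2 1.42.0 in R 4.3.3 as alternatives; other steps used Python 3.11.15, pandas 2.3.3 and Matplotlib 3.10.9.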

Additional observations from a re-analysis of the deposited data

How the results depend on the processing

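Detection of all 10 genes at a TPM of 0.5, with rescaled TPM and in each pool alone follows from the main call. A lower threshold, a single pool or a smaller total cannot lose a gene already detected, so these settings test nothing further. The settings that could lose a gene were FPKM, which is lower than TPM here, and a TPM of 5. All 10 genes were detected by FPKM, and 9 at a TPM of 5. No gene passed 1.5-fold under any of the 8 alternatives tried for that count. Several of these are weak checks. A change of filter or centring shifts all genes by the same amount, and FPKM and rescaled TPM are the deposited TPM at another scale. The median level of the 10 genes, as deposited, ranged from 43.4 to 45.1 TPM in single pools. Leaving spike-ins out raised the median over both pools to 54.8 TPM, and rescaling over protein-coding nuclear genes to 63.2, because the total they are divided by is smaller. The median pool difference, 0.044, was -0.030 with TMM, with DESeq2 size factors and with expected counts scaled to the library total (the last chosen after seeing the data). The cause of this change of sign was not tested. Without length adjustment Lin28b took 83.7% of its family, Igf2bp1 40.6%, Hmga2 23.96% and Msi2 25.7%, since these counts are by construction not divided by length. In single pools these shares ranged from 72.6% to 75.8% (Lin28b), 24.2% to 24.9% (Igf2bp1), 10.6% to 12.1% (Hmga2) and 15.9% to 22.6% (Msi2). A let-7 match of 8 bases was found in 6 genes, beside 3.28% of the 12615 untranslated regions. A match of 6 bases was found in 8 genes, beside 23.1%, and the gene added was Msi2, with 1 match in 5310 nt. In the longest annotated regions 7 genes had a match of 7 bases. No paired analysis was possible because both libraries belong to 1 group. Depth limits Lin28a most, with about 200 reads per library.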
